A study of Homo sapiens with 3 samples.

Results

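The genes described here are 9 members of the BCL2 family (BAX, BAK1, BBC3, PMAIP1, BID, BCL2L11, BCL2, BCL2L1 and MCL1) and APAF1, the scaffold of the apoptosome. They were taken by gene name from a table of ribosome footprint counts, in which each was found once, giving 10 genes of 63241 listed. The footprints came from HEK293T, a human embryonic kidney cell line whose SV40 large T antigen binds p53. All cells carried an added p53 construct, either wild-type (WT) or with the DNA-binding domain substitution G245S or R273H, and each group held 3 culture dishes grown in the same medium. Before harvest every dish received cycloheximide for 2 min, and lysates were digested with micrococcal nuclease for 30 min, so that the mRNA fragments covered by ribosomes could be sequenced. The study's methods describe the stable lines as lentivirus-infected cells kept under puromycin, while the labels use stable as well as transient for the same cells and give the mutants a treatment entry that names the WT construct. The groups were therefore taken from the sample titles. The libraries of the 3 dishes of a group were combined at reverse transcription, so group and pool cannot be told apart. The study describes the dishes of a group as separate dishes of its cell line, so group and line cannot be told apart either. The p-values below measure differences against the spread between dishes of the same line within a pool. No group without a p53 construct was analysed here, so a level in a mutant can only be set against WT or the other mutant.

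BCL2 family proteins decide whether the outer mitochondrial membrane is opened during intrinsic apoptosis. BAX and BAK1 form the pores, the anti-apoptotic proteins BCL2, BCL2L1 and MCL1 hold them in check, and the BH3-only proteins bind either class and tip the balance towards pore formation. Cytochrome c released through the pores binds APAF1, which assembles into the apoptosome and activates caspase-9. Several of these genes, among them BAX, BBC3 (PUMA) and PMAIP1 (NOXA), are textbook transcriptional targets of p53, and G245S and R273H are hotspot substitutions in the domain with which p53 contacts DNA.

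The DNA around the start of each gene was searched for the p53 response element, because both mutants carry a changed DNA-binding domain. The consensus was searched as a pair of 10-base repeats placed back to back, and repeats with other bases between them were not searched for. A match had to keep the C and the G of each repeat (4 core positions of 20, printed in capitals). At most 3 mismatches were allowed in the other 16 positions. The window ran 2500 bases to each side of the canonical start in GENCODE v44 (GRCh38), on both strands. A match was found for 5 of the 10 genes, against 2801 of 13602 windows of protein-coding genes (20.6%). With at most 2 mismatches, 2 genes (BAX and PMAIP1) kept a match, against 481 windows (3.54%). The matched elements of the 5 genes are shown as a description, each written 5′ to 3′ on the strand of its gene. Whether they bear on the differences reported below was not tested.
BAX, intron 1: gggCagGcccgggCttGtcg
BAX, upstream: agaCaaGcctgggCgtGggc
PMAIP1, distal upstream: gggCttGtttaccCaaGtct
PMAIP1, proximal upstream: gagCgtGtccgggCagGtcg
BBC3, upstream: ctgCaaGtcctgaCttGtcc
APAF1, distal upstream: ggcCagGcccaggCacGtcc
APAF1, proximal upstream: cagCagGctcaggCacGttc
BAK1, intron 1: gggCctGgccaggCatGtat
The BAX intron element lies at chr19:48955213-48955232 on the plus strand, centred at position 348 from the start, and has 2 mismatches. It also falls in an exon of a BAX transcript annotated as retaining the intron. The upstream BAX element at chr19:48954455-48954474 is centred at -410 and overlaps no annotated gene. The PMAIP1 elements on the plus strand of chromosome 18 lie at chr18:59899549-59899568 (position -438, 2 mismatches) and chr18:59899811-59899830 (position -176, 3 mismatches), outside any annotated gene. The BBC3 element is on the minus strand at chr19:47231320-47231339, at position -130 from the canonical start, inside the annotated span of BBC3 but in no annotated exon. Both APAF1 elements, at chr12:98644525-98644544 (position -756) and chr12:98644552-98644571 (position -728), fall in coding sequence of the neighbouring gene IKBIP on the other strand. The BAK1 element is at chr6:33579671-33579690 on the minus strand, at position 596. No match under these settings was found in the windows of BID, BCL2L11, BCL2, BCL2L1 and MCL1. These are descriptions of sequence, and binding of p53 to any of them was not measured here. RefSeq promoters (GRCh38.p14) were given for 9 of the 10 genes, and the 14 promoters concerned held no element with at most 2 mismatches, compared with 100 of 35116 promoters (0.285%). With so low a share, a match among 14 promoters was unlikely, so no conclusion is drawn. Matches with 3 mismatches were not searched for there, and the proximal PMAIP1 element, which has 3, lies within the PMAIP1 promoter (chr18:59899746-59900045).

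Library totals ranged from 18.7 M to 24.6 M counts, and each of the 10 genes passed the filter on low counts, with 49 to 4404 counts per library. Pairs of dishes that included dish 3 differed more (chi-square over its degrees of freedom 1.88 to 2.62) than dishes 1 and 2 did (1.48 to 1.56). MDM2 and CDKN1A, both induced by WT p53, were lower in both mutants, with log2 fold changes of -3.48 and -1.92 in G245S and of -3.49 and -2.14 in R273H. As epithelial markers, KRT8, KRT18 and the rest of a 5-gene list summed to 152 to 173 CPM (counts relative to the total of their library) over the 9 libraries (156 to 167 in WT, 152 to 154 in G245S and 166 to 173 in R273H), a 4-gene fibroblast list, nearly all of it COL1A1, to 25.4 to 34.8 CPM, and a 5-gene blood and endothelial list to 0.487 to 1.27 CPM. The summed fibroblast level was 31.1 to 34.8 CPM over the WT dishes and 25.4 to 30.3 CPM in the mutants. In each group 1 of the 4 markers was at 0 in every dish, COL1A2 in WT and R273H and THY1 in G245S. The KRT8 level was 32.6 to 34.8 CPM over the WT dishes, 34.4 to 35.8 CPM over those of G245S and 42.2 to 44.7 CPM over those of R273H. KRT8 and KRT18 made up most of the epithelial sum. Of its other markers, EPCAM held 3.30 to 5.33 CPM, CDH1 5.20 to 8.63 CPM and KRT19 0 to 0.0505 CPM over the libraries. The part of these marker levels in the differences below was not tested.

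Both mutants had far fewer footprints than WT on the pore former BAX, the BH3-only genes BBC3 and PMAIP1, and APAF1. Differences were smaller for BID, BAK1 and BCL2L1. Those of MCL1 were smaller still, and BCL2L11 and BCL2 did not pass the test described next in either mutant. A gene was called when its adjusted p was under 0.05 in edgeR's quasi-likelihood test, with Benjamini-Hochberg adjustment over the 19820 genes tested. In G245S against WT, 7 of the 10 genes were called, each lower. Of all genes tested, 24.7% were called in that comparison, 12.6% higher and 12.1% lower. In R273H against WT, 8 of the 10 were called, each lower, beside 28.8% of all genes, 14.2% higher and 14.6% lower. The median log2 fold change of the 10 genes was -0.35 in G245S and -0.26 in R273H, while the median over all genes tested was -0.00069 and -0.0024. Well-counted genes were called more often, at 33.1% and 37.6% of the 12656 that averaged 100 counts or more. In the direct comparison of G245S with R273H, 1 of the 10 genes (BAX) was called, beside 2.59% of all genes, 1.86% higher and 0.732% lower in G245S. The mutant comparisons share the WT dishes and are not independent of each other.

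**Figure D1:**
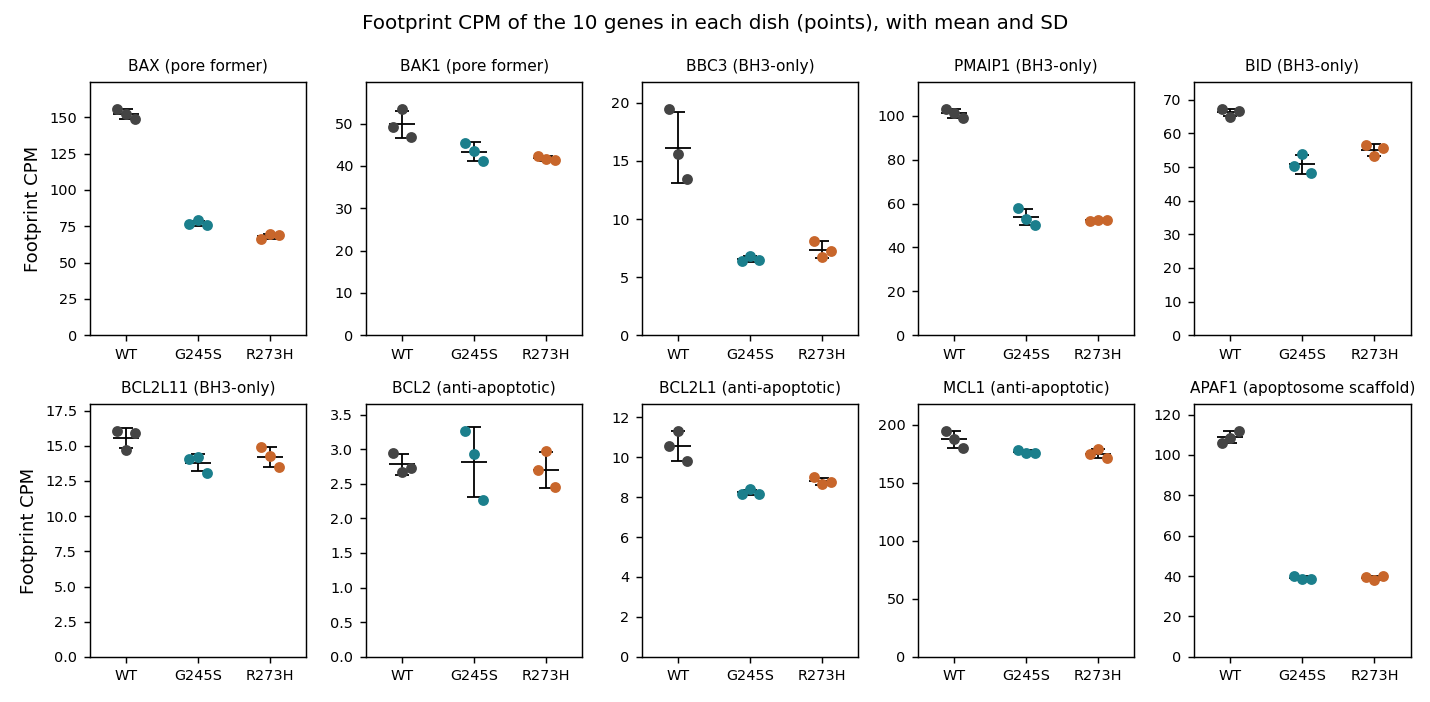
Footprint level in CPM (vertical axes, from 0, 1 scale per gene) of the 10 genes in each of the 3 dishes of WT, G245S and R273H, with the mean and SD. For BAX, BBC3, PMAIP1 and APAF1 the WT dishes stand far above all 6 mutant dishes, while for BCL2 the groups overlap.

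BAX, which is recruited from the cytosol to the mitochondrial surface to form pores, lies at chr19:48954815-48961798 (plus strand, 6 exons). Its level was 156, 152 and 149 CPM in the WT dishes, 76.4, 79.0 and 75.6 CPM in G245S, and 66.2, 69.7 and 68.7 CPM in R273H. Every WT dish was higher than every mutant dish, and every G245S dish was higher than every R273H dish. BAX was 1.95-fold lower in G245S than in WT (log2 fold change -0.96, SE 0.0339, edgeR adjusted p = 5.7e-19). In R273H it was 2.23-fold lower (-1.16, SE 0.0336, edgeR adjusted p = 4.2e-21). The difference between the mutants was 0.19 on the log2 scale (95% interval 0.12 to 0.27, SE 0.0362, edgeR adjusted p = 0.00268), so that BAX was 14.3% higher in G245S than in R273H. This call was lost in a test against a minimum change of 1.2-fold.

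BAK1, the pore former that resides in the outer membrane, lies at chr6:33572547-33580293 on the minus strand and differed far less than BAX. The WT dishes held 49.2, 53.4 and 46.9 CPM, those of G245S 45.6, 43.5 and 41.2 CPM, and those of R273H 42.4, 41.5 and 41.4 CPM. All WT dishes were above all mutant dishes, by a narrow margin for G245S. BAK1 fell by 0.18 on the log2 scale in G245S (SE 0.0503, edgeR adjusted p = 0.00887) and by 0.25 in R273H (SE 0.0493, edgeR adjusted p = 0.000267). The G245S call was lost without dish 2 of WT (adjusted p = 0.0877) and without dish 3 of G245S (adjusted p = 0.0699) in the same edgeR test. A pseudogene on the other strand, GGNBP1, overlaps BAK1, and BAK1P1 and BAK1P2 are processed copies of it elsewhere, so a share of its estimated counts is uncertain.

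BBC3 encodes PUMA, a BH3-only protein that binds all the main anti-apoptotic relatives, and lies at chr19:47220822-47232766 on the minus strand. Its level was 19.4, 15.6 and 13.4 CPM in WT, 6.42, 6.82 and 6.43 CPM in G245S, and 8.14, 6.71 and 7.26 CPM in R273H. The lowest WT dish was above the highest mutant dish, and the WT dishes varied more among themselves than those of either mutant. BBC3 was 2.43-fold lower in G245S (log2 fold change -1.28, SE 0.117, edgeR adjusted p = 4.8e-09) and 2.19-fold lower in R273H (-1.13, SE 0.110, edgeR adjusted p = 1.6e-08). Its coding region has the highest GC content of the 10 genes, 76.5%.

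PMAIP1 encodes NOXA, a small BH3-only protein that binds MCL1, and lies at chr18:59899996-59904305 on the plus strand with a coding region of 162 nucleotides. The WT dishes held 103, 101 and 99.0 CPM, G245S 57.8, 53.1 and 50.4 CPM, and R273H 52.2, 52.4 and 52.6 CPM. The mutant dishes overlapped each other and all lay far below WT. PMAIP1 was 1.86-fold lower in G245S (log2 fold change -0.89, SE 0.0424, edgeR adjusted p = 7.4e-16) and 1.93-fold lower in R273H (-0.95, SE 0.0414, edgeR adjusted p = 8.9e-17).

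BID and BCL2L11 (BIM) are BH3-only proteins that can activate BAX and BAK1 directly. BID, at chr22:17734138-17774770 on the minus strand, was at 67.2, 64.9 and 66.7 CPM in WT, 50.4, 53.9 and 48.3 CPM in G245S, and 56.5, 53.3 and 55.6 CPM in R273H. The WT dishes were all above the mutant dishes, and G245S and R273H overlapped. BID fell by 0.36 on the log2 scale in G245S (SE 0.0447, edgeR adjusted p = 4.4e-07) and by 0.26 in R273H (SE 0.0431, edgeR adjusted p = 2.7e-05). BCL2L11, at chr2:111119378-111168444 on the plus strand, was at 16.04, 14.7 and 15.9 CPM in WT, 14.05, 14.2 and 13.1 CPM in G245S, and 14.9, 14.3 and 13.5 CPM in R273H. The WT dishes lay just above G245S and overlapped R273H. Its log2 fold change of -0.16 in G245S (95% interval -0.32 to 0.0043, edgeR adjusted p = 0.152) and of -0.13 in R273H (-0.28 to 0.028, edgeR adjusted p = 0.222) did not pass the test. A long non-coding RNA, MIR4435-2HG, overlaps BCL2L11 on the other strand, and whether the counting used strand is not stated.

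Of the 3 anti-apoptotic genes, BCL2L1 fell in both mutants, MCL1 fell in R273H, and BCL2 passed the test in neither. MCL1, a short-lived guardian at chr1:150560895-150579738 on the minus strand, had the highest CPM of the 10 genes, at 194, 188 and 179.9 CPM in WT, 178, 176 and 176 CPM in G245S, and 175, 179 and 171 CPM in R273H. The lowest WT dish was just above the highest mutant dish. MCL1 fell by 0.098 on the log2 scale in R273H (SE 0.0292, edgeR adjusted p = 0.0120), a call lost without dish 1 of WT (adjusted p = 0.0952) or without dish 3 of R273H (adjusted p = 0.0595). In G245S its log2 fold change was -0.068 (95% interval -0.13 to -0.0072, edgeR adjusted p = 0.0955), and it was called under 4 of the 19 alternatives, without dish 3 of WT (adjusted p = 0.0387), without dish 3 of every group (0.0404), with the replicate block (0.0337) and with the length and GC trend removed (0.0127). The opposite-strand gene ADAMTSL4 and several non-coding genes, some of them on its own strand, overlap MCL1. Non-coding genes on the same strand also overlap BBC3, BID and BCL2, and non-coding genes on the other strand overlap BBC3, BCL2 and BCL2L1.

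BCL2L1, whose long isoform is the anti-apoptotic BCL-XL and whose short isoform acts the other way, lies at chr20:31664452-31723989 on the minus strand. A count per gene does not separate these isoforms. The dishes held 10.5, 11.3 and 9.82 CPM in WT, 8.17, 8.38 and 8.14 CPM in G245S, and 8.995, 8.64 and 8.77 CPM in R273H, with WT above both mutants and R273H narrowly above G245S. BCL2L1 fell by 0.34 on the log2 scale in G245S (SE 0.0945, edgeR adjusted p = 0.00882), a call lost without dish 2 of WT (adjusted p = 0.0536). It fell by 0.26 in R273H (SE 0.0907, edgeR adjusted p = 0.0305), but this call was lost in 9 of the 19 alternatives. These included the fits without dish 1 or 2 of WT or any R273H dish (edgeR adjusted p of 0.0564 to 0.138). The call was also lost in the DESeq2 Wald test (adjusted p = 0.131) and with no count filter (edgeR adjusted p = 0.0836). The same held with the length and GC trend removed (edgeR adjusted p = 0.0647) and with a minimum fold change of 1.2. BCL2, the founding member of the family at chr18:63123346-63320128 on the minus strand, had the fewest footprints. Its level was 2.95, 2.67 and 2.73 CPM in WT, 3.26, 2.93 and 2.27 CPM in G245S, and 2.70, 2.97 and 2.45 CPM in R273H, and the 3 groups overlapped. The fit gave a log2 fold change of 0.029 in G245S (95% interval -0.33 to 0.39, edgeR adjusted p = 0.930) and -0.038 in R273H (-0.39 to 0.32, edgeR adjusted p = 0.898).

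APAF1, at chr12:98645290-98735433 on the plus strand with 27 exons and a coding region of 3744 nucleotides, had the lowest ratio to WT of the 10 genes in both mutants. It was at 106, 108 and 112 CPM in WT, 40.2, 38.7 and 38.3 CPM in G245S, and 39.5, 38.1 and 40.2 CPM in R273H. The mutants overlapped each other and every mutant dish was far below every WT dish. APAF1 was 2.74-fold lower in G245S (log2 fold change -1.46, SE 0.0419, edgeR adjusted p = 4.3e-21) and 2.77-fold lower in R273H (-1.47, SE 0.0406, edgeR adjusted p = 1.2e-21). Ranked from the lowest log2 fold change among the 19820 genes, APAF1 stood at place 119 in G245S and 96 in R273H, BBC3 at 150 and 184, BAX at 293 and 177, and PMAIP1 at 351 and 293. These 4 genes kept their calls against WT under all 19 alternative settings tried. ANKS1B overlaps APAF1 on the other strand.

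**Figure D2:**
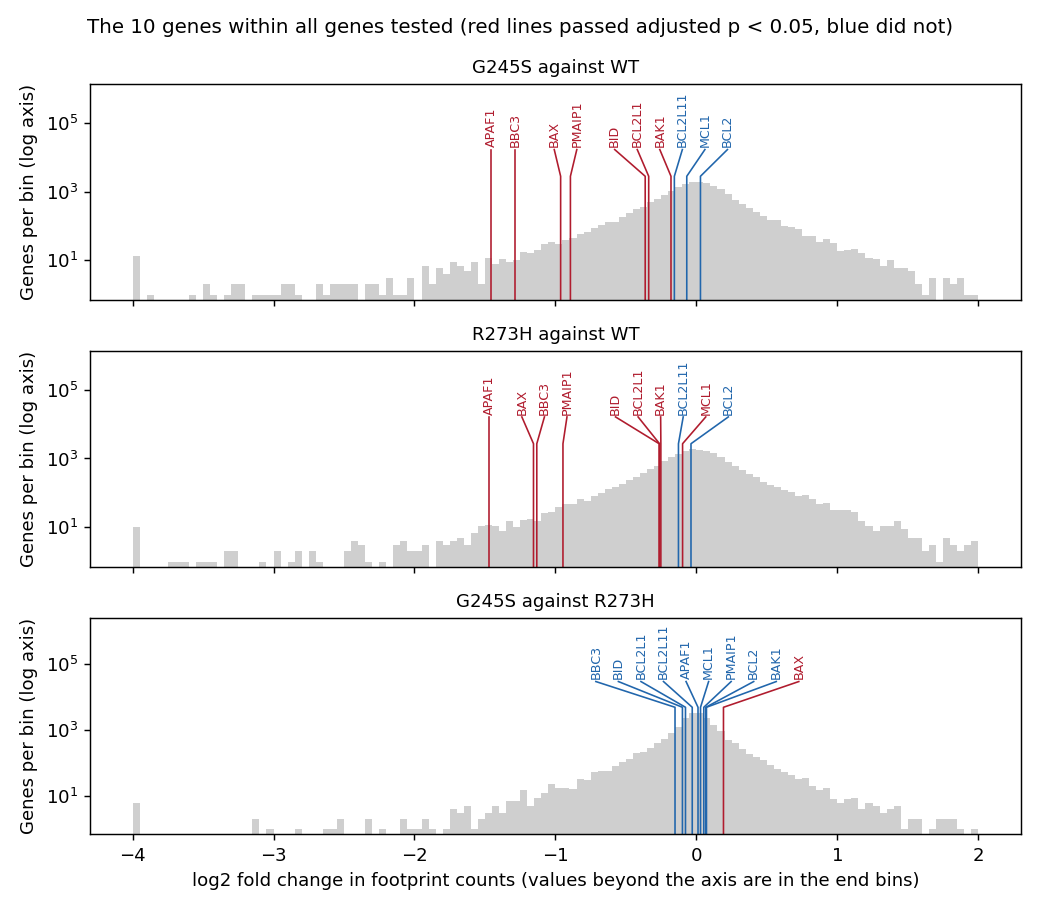
Histograms of log2 fold change for the 19820 genes tested (horizontal axis, log2 fold change; vertical axis, genes per bin on a log scale) in the 3 comparisons, with a line for each of the 10 genes, red where called and blue where not. Against WT, APAF1, BBC3, BAX and PMAIP1 lie furthest into the lower tail and the others nearer the centre. Between the mutants all 10 lie near 0.

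The comparison of G245S with R273H asks whether the mutants differ from each other. Apart from BAX, the log2 differences lay between -0.15 for BBC3 (95% interval -0.41 to 0.11, edgeR adjusted p = 0.614) and 0.072 for BAK1 (-0.031 to 0.17, edgeR adjusted p = 0.523). Intervals that reached no further than 0.14 from 0 were those of MCL1 (0.030, interval -0.030 to 0.090, edgeR adjusted p = 0.679), APAF1 (0.012, interval -0.084 to 0.11, edgeR adjusted p = 0.941) and PMAIP1 (0.053, interval -0.039 to 0.14, edgeR adjusted p = 0.615). A difference was not detectable for these genes, and the widest interval, for BCL2 (-0.28 to 0.42), leaves room for larger ones. BID had a log2 difference of -0.099 (95% interval -0.19 to -0.0074, edgeR adjusted p = 0.271) and was called, lower in G245S, when the dependence on GC content and coding length was taken out (log2 difference -0.14, adjusted p = 0.0387). The BCL2L1 dishes did not overlap between the mutants, but the difference did not pass the test (log2 difference -0.077, interval -0.27 to 0.12, edgeR adjusted p = 0.755). How often dishes separate in this way over all genes was not counted here.

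**Figure D3:**
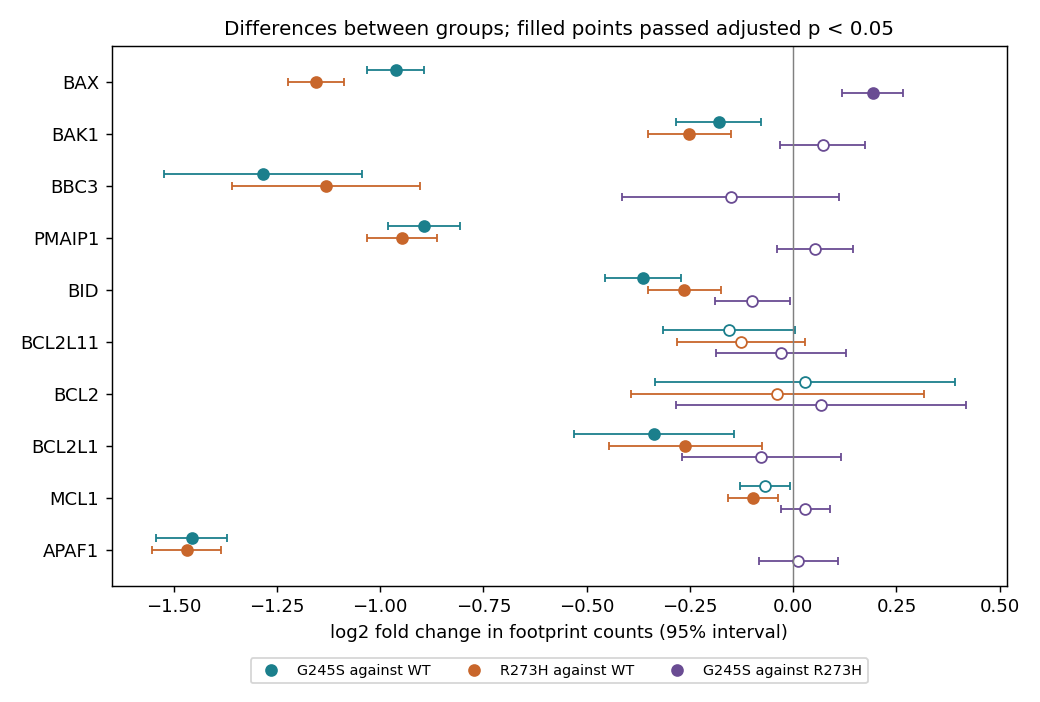
Log2 fold change of footprint counts (horizontal axis) with 95% intervals for the 10 genes in each mutant against WT and between the mutants, with filled points at adjusted p under 0.05. The 4 genes at the left, APAF1, BBC3, BAX and PMAIP1, have intervals clear of the remaining genes in both mutants, and BAX has the single filled point between the mutants.

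Levels of different genes were compared as CPM per kilobase of coding region. In WT the order was PMAIP1 (624 CPM per kb), BAX (264), MCL1 (179), BID (113), BAK1 (78.7), APAF1 (29.0), BBC3 (27.9), BCL2L11 (26.2), BCL2L1 (15.1) and BCL2 (3.88). The dishes of APAF1 and BBC3 overlapped, as did those of BBC3 and BCL2L11, and all other neighbours in the order were separated. In the mutants MCL1, at 168 CPM per kb in G245S and 167 in R273H, stood above BAX, at 134 and 118, so that the order of this pore former and this guardian was the reverse of that in WT. APAF1 moved from the sixth place to the ninth, at 10.4 CPM per kb in G245S and 10.5 in R273H, below BCL2L1 (11.8 and 12.6) and BBC3 (11.3 and 12.7), whose dishes overlapped each other. PMAIP1 stayed at the head (332 and 323 CPM per kb) and BCL2 at the end (3.93 and 3.77). The value for PMAIP1 rests on a coding region of 162 nucleotides, the shortest of the 10.

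**Figure D4:**
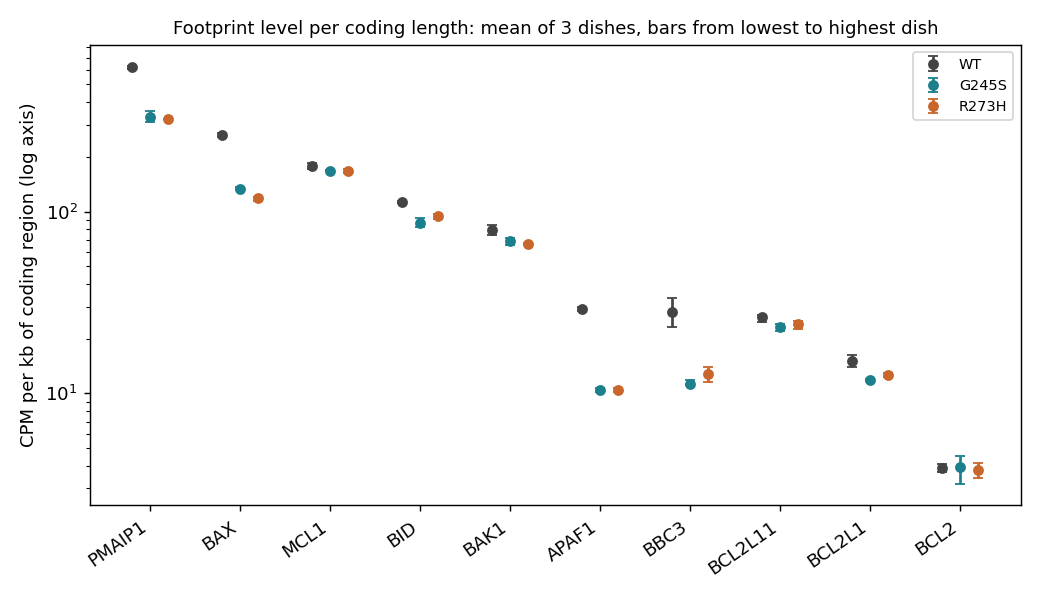
Mean footprint level per kilobase of coding region (vertical axis, CPM per kb, log scale) of the 10 genes in order of their WT level, with bars from the lowest to the highest of the 3 dishes. BAX lies above MCL1 in WT and below it in both mutants, and the drop of APAF1 and BBC3 brings them near BCL2L1.

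Summed by role, the pore formers held 195 to 206 CPM in the WT dishes, 117 to 123 CPM in those of G245S and 109 to 111 CPM in R273H. The 4 BH3-only genes summed to 195 to 206 CPM in WT dishes, 118 to 129 CPM in those of G245S and 127 to 132 CPM in those of R273H. The 3 anti-apoptotic genes, most of whose footprints were on MCL1, summed to 192 to 208 CPM, 186 to 190 CPM and 182 to 191 CPM. Each ratio below is a mean ± SD over 3 dishes, in the order WT, G245S and R273H. For BH3-only over anti-apoptotic footprints it was 0.991 ± 0.0204, 0.666 ± 0.0273 and 0.693 ± 0.0245. For BAX over MCL1 it was 0.812 ± 0.0132, 0.436 ± 0.0119 and 0.390 ± 0.0113, and for PMAIP1 over MCL1 it was 0.539 ± 0.0107, 0.305 ± 0.0189 and 0.299 ± 0.00727. Within the pore formers, BAX had 3.06 ± 0.179 times the CPM of BAK1 in WT, 1.78 ± 0.0861 times in G245S and 1.63 ± 0.0623 times in R273H. These ratios describe footprints, and protein amounts were not measured in these files.

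For the 4 genes with a log2 fold change of at least 0.5 in size, the genes with the most similar pattern of log2 CPM over the 9 libraries were looked up among 12655 others that averaged 100 counts or more. The libraries fall into 3 groups, so such correlations share the step from WT to the mutants and are given as a description. Nearest to BAX were DDB2, a DNA damage sensor (r = 0.999), CDKN1A, the cell cycle inhibitor p21 (r = 0.998), and TYMS, thymidylate synthase (r = 0.997). DDB2 had log2 fold changes of -2.57 in G245S and -3.08 in R273H, the same order of the mutants as for BAX. Nearest to APAF1 were CAV1, which coats caveolae (r = 0.999), MDM2, the ubiquitin ligase of p53 (r = 0.999), and the desmosomal cadherin DSC3 (r = 0.998), and all 3 had nearly equal changes in both mutants, as APAF1 did. PMAIP1 was nearest to PHLDA3, a repressor of AKT signalling (r = 0.996), the unnamed gene ENSG00000291096 (r = 0.996) and MICALL1 (r = 0.996). BBC3 had lower correlations, with C4orf3 (r = 0.988), NRN1 (r = 0.987) and MVP, the major vault protein (r = 0.984). The r does not measure the size of a change. In G245S and R273H, log2 fold changes were -0.34 and -0.28 for C4orf3, -0.22 and -0.21 for NRN1, and -1.31 and -1.24 for MVP. Those of PHLDA3 were -3.27 and -3.61, of ENSG00000291096 -2.27 and -2.44, and of MICALL1 -1.14 and -1.20.

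The rest of the intrinsic pathway was read from a list of 46 further genes, of which 38 passed the count filter and 8, such as BCL2A1, BCL2L10 and BIRC3, had too few counts. In G245S, 15 of the 38 (39.5%) were called, 7 higher and 8 lower, and in R273H, 17 (44.7%) were called, 7 higher and 10 lower, beside the 24.7% and 28.8% of all genes given above. The median log2 fold change of the list was -0.034 in G245S and -0.022 in R273H. Called in both mutants were 12 genes, 6 lower and 6 higher.

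The 3 list genes with the lowest ratios were PIDD1, AEN and FBXW7. PIDD1, the sensor protein that activates caspase-2, was at 22.9, 25.1 and 22.6 CPM in WT, 6.25, 6.92 and 5.69 CPM in G245S, and 7.56, 6.99 and 6.70 CPM in R273H. It had a log2 fold change of -1.89 in G245S (SE 0.0899, edgeR adjusted p = 8.2e-16) and -1.73 in R273H (SE 0.0847, edgeR adjusted p = 1.4e-15). AEN, an apoptosis-enhancing nuclease, fell by 1.33 (SE 0.0371, edgeR adjusted p = 1.9e-21) and 1.42 (SE 0.0364, edgeR adjusted p = 1.8e-22) on the same scale. FBXW7, part of a ubiquitin ligase that marks MCL1 for degradation, was at 24.9, 25.8 and 25.7 CPM in WT, 10.6, 10.7 and 11.3 CPM in G245S, and 11.7, 12.2 and 10.3 CPM in R273H. It had log2 fold changes of -1.21 (SE 0.0755, edgeR adjusted p = 4.2e-13) and -1.15 (SE 0.0722, edgeR adjusted p = 4.4e-13). For all 3 genes the WT dishes stood above every mutant dish. USP9X, the enzyme that removes ubiquitin from MCL1, was higher in both mutants, by 0.16 in G245S (SE 0.0266, edgeR adjusted p = 6.0e-05) and 0.15 in R273H (SE 0.0264, edgeR adjusted p = 0.000101). HUWE1, the remaining gene listed for MCL1 turnover, was called higher in G245S (0.087, SE 0.0227, edgeR adjusted p = 0.00517). In R273H it was not called (0.047, SE 0.0226, edgeR adjusted p = 0.124).

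The other genes called in both mutants moved by less than 0.5 on the log2 scale. BNIP3L, a mitophagy receptor related to the BH3-only proteins, had log2 fold changes of -0.42 in G245S and -0.38 in R273H. The executioner caspase CASP6 had -0.32 and -0.24, and PERP, a membrane protein induced by p53, had -0.22 and -0.32. The higher genes were BIRC6, a giant inhibitor of apoptosis protein (0.22 and 0.29), MTCH2, the outer membrane receptor for truncated BID (0.19 and 0.14), AIFM1, a mitochondrial flavoprotein that can move to the nucleus (0.12 and 0.20), and the channels VDAC2 (0.16 and 0.15) and VDAC1 (0.15 and 0.12). Of the 4 outer membrane partners tested, VDAC1, VDAC2 and MTCH2 rose in both mutants and VDAC3 passed in neither. Of the 5 genes read for cytochrome c and caspases, CASP6 was called in both mutants and CYCS in R273H, each lower, while CASP9, the caspase recruited by APAF1, passed in neither. Among the other BH3-only genes (BAD, BIK, BMF and HRK), BAD fell by 0.21 on the log2 scale in R273H (SE 0.0631, edgeR adjusted p = 0.0134) and the rest did not pass in either mutant. Between G245S and R273H, adjusted p for the 12 genes called in both mutants ran from 0.0713 for AIFM1 to 0.910 for USP9X in edgeR.

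**Figure D5:**
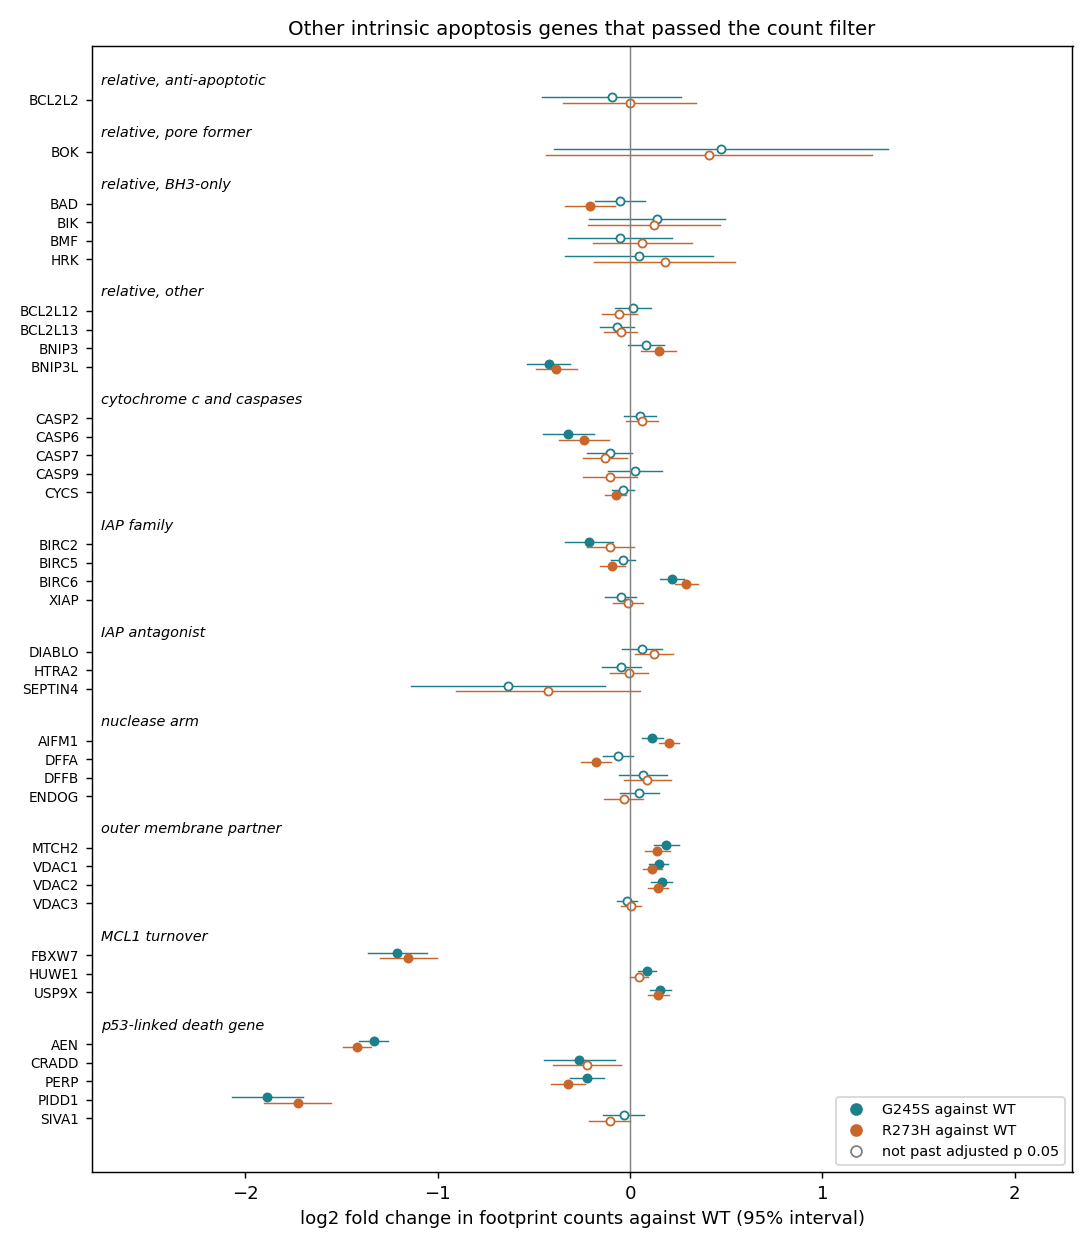
Log2 fold change against WT (horizontal axis, with 95% intervals) of 38 further intrinsic apoptosis genes, grouped by role, for G245S and R273H, with filled points at adjusted p under 0.05. PIDD1, AEN and FBXW7 lie beyond -1 in both mutants, and the other called genes lie within 0.5 of 0.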

How the data were processed

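Ribosome footprint libraries from 9 dishes (3 groups of 3) were read from a single deposited table of expected counts, which are estimates and can be fractional. The authors trimmed adapters with Trim Galore, removed rRNA reads and aligned to GRCh38 with STAR. The counting tool, annotation release, use of strand and treatment of reads with several matches are not given in the sources used here. In each library 61.5% to 63.7% of the values above 0 were fractional. No column of per-sample values was left out.

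Expected counts were rounded and compared in R 4.3.3 with edgeR 4.0.16 (two-sided glmQLFTest after filterByExpr, TMM and robust glmQLFit). The 9 libraries were fitted together with a term for group, leaving 6 residual degrees of freedom. The fit was tested on simulated counts. CPM printed are expected counts divided by the library total, without TMM (factors 0.987 to 1.01), those of the pattern search are TMM-scaled with 0.5 added before the log2, and 95% intervals of log2 fold changes came from the fit. Coordinates and coding lengths came from the canonical transcripts of GENCODE v44, which matched 62666 of 63241 genes (99.09%). Counting error, dish and pool are not separated in an SD over dishes, and footprints do not separate mRNA abundance from translation, since no matched RNA-seq was used here.

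All 10 genes were named. From the pathway list, 1 gene is not reported here. Of the remaining 46, up to 12 called in both mutants in the same direction with the largest mean size were named, and for each of the 10 genes called in both mutants with a size of at least 0.5, the 3 genes nearest by Pearson r. CYCS, CASP9, VDAC3, HUWE1, BAD, BIK, BMF and HRK lie outside this rule. They were named beside the count or the other genes of their role, after their values were seen. MDM2 and CDKN1A checked the constructs. The genes, lists and rules were chosen with earlier results of these data known. Dishes with the same number were not treated as pairs in the main fit. Over 9 pairs their deviations from the group means correlated at 0.044 to 0.234, above 0.1 in 4 pairs. Pairs with different numbers correlated lower or over part of that range, at -0.189 to 0.0595. A term for dish number was fitted only as an alternative. Alternatives were other normalizations, DESeq2 1.42.0, no count filter, only the compared libraries, a replicate block, unrounded counts, removal of a length and GC trend, a minimum fold change of 1.2, each dish left out, and, chosen after seeing the data, dish 3 of every group left out.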

Additional observations from a re-analysis of the deposited data

Results flagged for a closer look

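BAX was flagged because its difference from WT was not the same in the 2 mutants: the direct comparison gave 0.19 on the log2 scale (G245S above R273H, edgeR quasi-likelihood adjusted p = 0.00268), and all 3 G245S dishes were above all 3 R273H dishes. Over the 19 alternatives the difference stayed between 0.14 and 0.22, and it was past the threshold in 18. Group, cell line and pool cannot be told apart in this comparison.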

How the results depend on the processing

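BAX, BBC3, PMAIP1 and APAF1 kept their calls against WT under all 19 alternatives. A minimum fold change of 1.2 (glmTreat) called 547 genes, 4 of the 10 among them, in G245S against WT, 693 and 4 in R273H against WT, and 3 and 0 in the direct comparison. Its calls require a larger change by construction. In the direct comparison the replicate block called 1262 genes and leaving out dish 3 of every group 1026, against 513, with BAX the only one of the 10 in each, and removing the length and GC trend called 2 of the 10. With the replicate block 8 of the 10 were called in G245S, MCL1 being added (-0.067, adjusted p 0.0337), and 8 in R273H. Of the 9 libraries, 8 correlated best with a dish of their own number, and the cause was not tested. Leaving out 1 replicate gave 3899 to 4850, 4526 to 5829 and 162 to 712 genes called in the 3 comparisons in this order, and 5 to 8, 6 to 8 and 1 of the 10. The direct count fell to 162 and 204 without dish 1 or 2 of G245S and to 222, 233 and 295 without dish 1, 2 or 3 of R273H. DESeq2 called 3564, 4056 and 394 genes. Upper-quartile scaling split the calls 2793 higher and 2182 lower in G245S and 3144 and 2601 in R273H.

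Signs turned only for differences near 0 that were not called. Leaving out 1 replicate, the log2 difference between G245S and R273H ran from -0.010 to 0.034 for APAF1, -0.048 to 0.21 for BCL2, -0.0019 to 0.10 for PMAIP1 and -0.060 to 0.012 for BCL2L11, and that of BCL2 against WT from -0.085 to 0.18 in G245S and -0.11 to 0.025 in R273H. With the trend removed MCL1 was -0.015 between the mutants and BCL2 0.033 in R273H against WT, which was 0.018 without dish 3 of every group. The cause was not tested. Of the 10 genes, BCL2 and BBC3 had the largest standard errors, and counting error was not separated from the spread between dishes.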
